A study of Mus musculus with 11 samples.

Results

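Interferon response and antigen presentation genes were followed in hypothalamic RNA of male mouse offspring at postnatal day (P) 21. The C57BL/6N dams of the HFD offspring (n = 6 arrays) had received a high-fat diet from weaning through mating, gestation and lactation, and the dams of the control offspring (CO, n = 5 arrays, labelled SD) a standard chow. No engineered allele was named for either group, each array held 1 RNA sample in a single colour, and neither the litter of a sample nor whether a sample was 1 animal was given, so p-values measured only the spread between these samples. Some CO labels share a leading number, whose meaning was not given. Genes were members if their mouse symbol belonged to the H2, Ifi, Ifit, Ifitm, interferon receptor, Irf, Gbp, Oas, Stat, Isg, Irgm, B2m, Tap, Trim21 and Trim25 or Mx families. A further condition was a probe well above background on 5 or more of the 11 arrays, and the brightest probe stood for the gene. This gave 91 of the 17188 genes tested. Another 16 members were on the arrays but did not reach that limit, while Mx1 and Mx2 had no probe matched by accession.

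Interferons are secreted proteins that bind paired receptor chains on the cell surface and act through Janus kinases and STAT proteins. Complexes that hold STAT2 and IRF9 then bind promoter elements of interferon-stimulated genes, whose products block viral RNA, degrade it or attack intracellular pathogens. The same signals raise major histocompatibility complex (MHC) genes, called H2 in the mouse. Class I molecules present peptides from inside the cell after TAP1 and TAP2 have carried them into the endoplasmic reticulum, and class II molecules present peptides taken up from outside. In healthy brain tissue most of these genes are low, and microglia, border macrophages and vessel cells are among the main cells that carry them.

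Levels were log2 signals relative to the 75th percentile of the same array, so a difference of 1 is a 2-fold change, and levels of different probes were not compared. Differences are HFD minus CO ± standard error, and intervals of a difference are 95% intervals, both from limma. In the HFD offspring 15 of the 91 members were higher and 49 were lower than in CO at an adjusted p under 0.05 (limma), and 27 were not called. Over all genes tested the groups were also far apart, with 66.4% of genes called, 21.9% higher and 44.5% lower. The members had 16.5% higher and 53.8% lower, and their median difference was -0.30 against -0.18 over all genes. For 9 members all HFD samples lay above all CO samples, and for 34 all lay below, where the shares over all genes were 16.0% and 30.9%, or 46.8% together. At a difference of at least 2-fold there were 3 members higher and 10 lower, beside 5.54% and 10.1% of all genes. Among the 83 members well above background on all 11 arrays 15 were higher and 43 lower, beside 23.8% and 41.6% of all genes so measured. In these bulk samples fewer cells of a type and less RNA per cell cannot be told apart. As groups, all 6 IFIT genes were higher, while the classical class I genes, most non-classical class I genes, TAP genes and most Irf genes were lower.

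**Figure D1:**
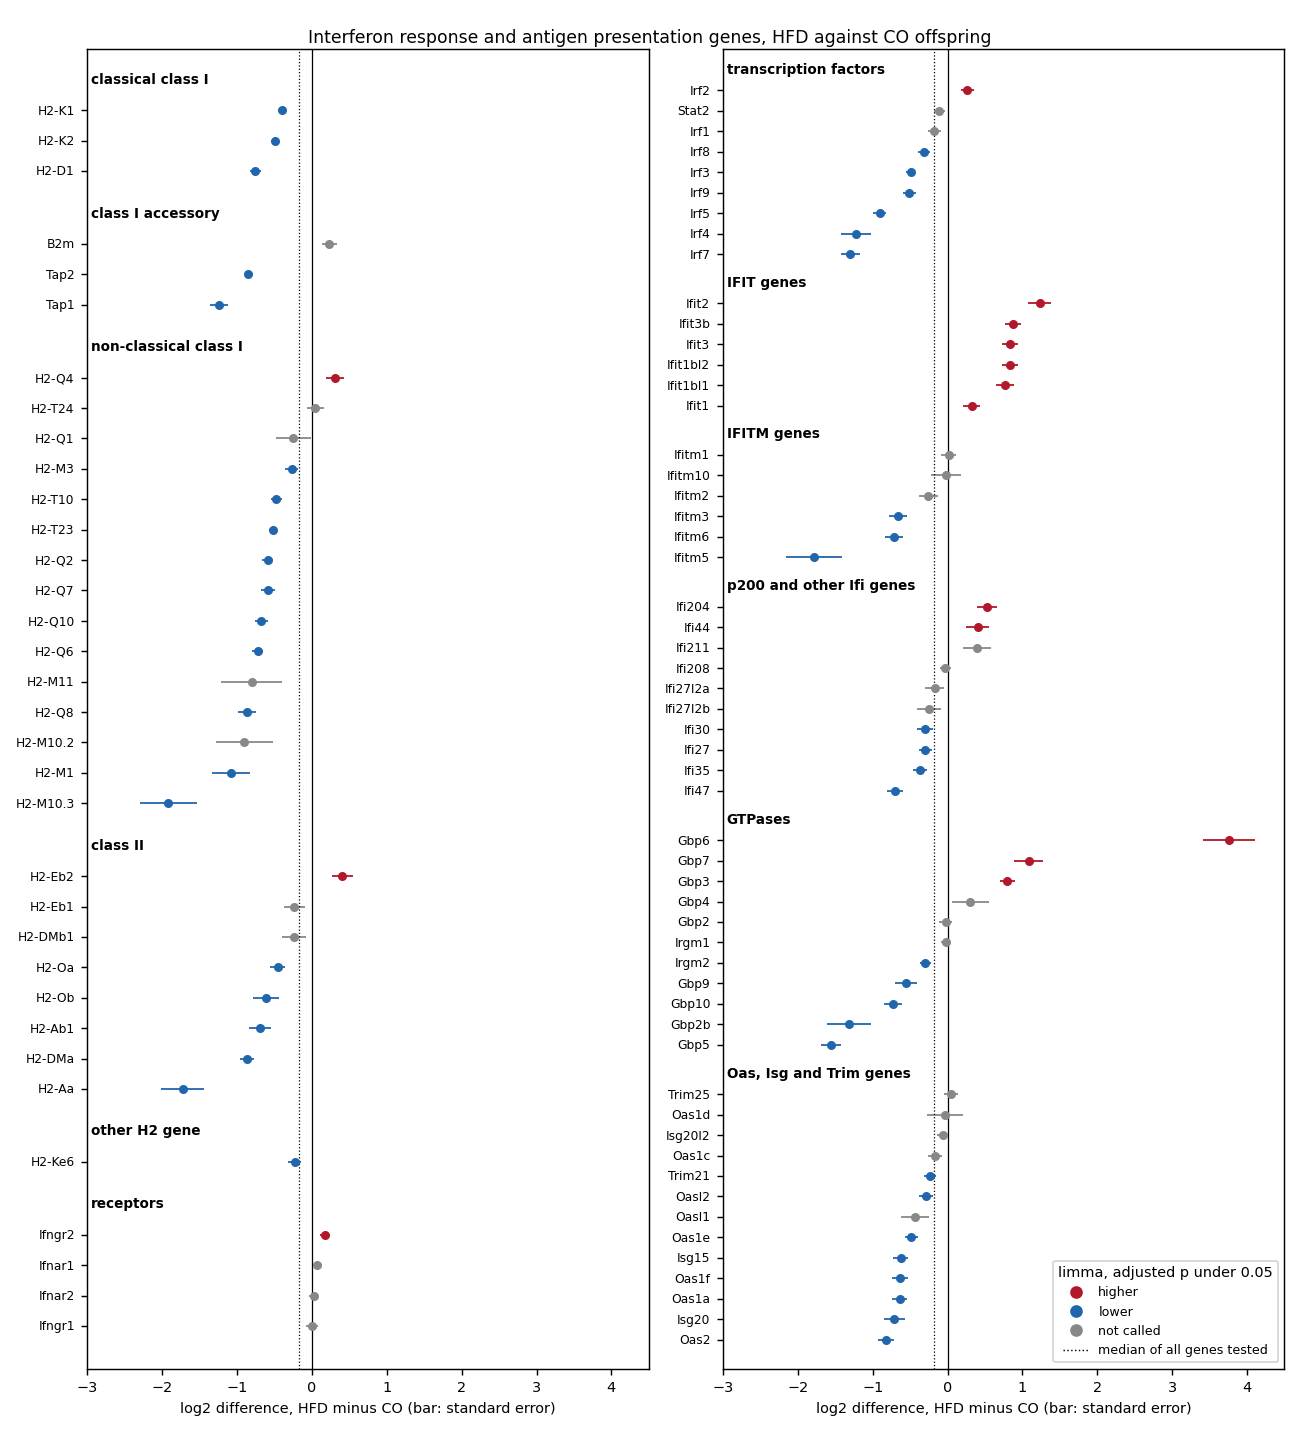
Log2 difference, HFD minus CO, of 89 of the 91 members by role, with its standard error as a bar. Red marks genes called higher, blue genes called lower and grey genes not called, and the dotted line marks the median of all genes tested at -0.18. The 6 IFIT genes lie between 0.32 and 1.23, while the 3 classical class I genes lie between -0.75 and -0.40. Scaled to spike-in probes, every difference shifts by -0.67, and Ifit1 is then lower.

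The 2 groups were hybridised on separate slides and scanned in 2 sessions 337 days apart, with different versions of the feature extraction protocol, so batch and group cannot be told apart. Of the mouse spots, 71.8% to 77.4% were well above background in HFD offspring and 82.5% to 85.7% in CO. Arrays correlated at 0.991 to 0.997 within HFD, 0.990 to 0.996 within CO and 0.959 to 0.977 between the groups. Scaling to spike-in probes in place of the 75th percentile shifted all differences by -0.67, which left 2 members higher and 78 lower, beside 5.56% and 83.6% of all genes. Directions are therefore relative to the bulk of the genes on each array. Normexp background correction left 6 members higher and 21 lower, beside 15.1% and 23.4%. All 9 hypothalamus markers were measured, 7 of them well above background on every array, while Sim1 was so on no CO array and Otp on 1 HFD array. The first HFD sample stood apart from the other HFD samples, with a mean deviation of -1.51 over 4 choroid plexus markers and -0.41 over the hypothalamus markers, where the other HFD samples had -0.24 to 0.31 and 0.28 to 0.59. Without it 15 members were higher and 49 lower.

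Classical class I genes encode the heavy chains that present peptides to cytotoxic T cells. All 3 measured were lower in HFD offspring, as were 44.5% of all genes. The H2-D1 signal was 0.22 at the lowest, 0.39 at the median and 0.45 at the highest in HFD offspring, while the CO samples stood at 0.95, 1.23, 0.96, 1.32 and 1.20. H2-K1 lay between 0.60 and 0.82 in HFD offspring, with a median of 0.69, and at 1.12, 1.12, 1.15, 1.06 and 1.02 in CO offspring. No HFD sample reached the lowest CO sample for either gene. The difference was -0.75 ± 0.080 for H2-D1 (adjusted p = 1.01e-05), which left its signal at 59.3% of CO. For H2-K1 it was -0.40 ± 0.053 (adjusted p = 5.58e-05), or 75.8% of CO, and a second probe gave -0.69. For H2-K2 the HFD median was -0.15 with extremes of -0.18 and 0.0048, against 0.24, 0.44, 0.37, 0.40 and 0.43 in the CO samples. This gene, a relative of H2-K1 annotated as non-coding, was also lower in every HFD sample, by -0.49 ± 0.058 (adjusted p = 2.02e-05). The calls of all 3 held in each scaling and in normexp background correction. Class I genes are close in sequence, and whether their probes also bound the transcripts of relatives was not tested.

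Of the partners of the heavy chain, both TAP genes were lower and B2m was not called. Tap2 lay between -0.30 and 0.015 in HFD offspring, with a median of -0.15, and at 0.70, 0.72, 0.76, 0.71 and 0.72 in CO offspring. For Tap1 the HFD median was -6.36 with extremes of -6.85 and -6.20, against -5.37, -5.07, -5.31, -5.04 and -5.13 in the CO samples. Both TAP genes, which encode the paired chains of the peptide transporter, had all HFD samples below all CO samples. Tap2 differed by -0.85 ± 0.062 (adjusted p = 8.29e-07; 55.5% of CO) and Tap1 by -1.24 ± 0.12 (adjusted p = 4.04e-06; 42.3% of CO), though the dim Tap1 probe lost its call with normexp correction. The B2m signal was 1.29 at the lowest, 1.51 at the median and 1.68 at the highest in HFD offspring, while the CO samples stood at 1.16, 1.11, 1.05, 1.41 and 1.49. B2m, the light chain shared by class I molecules, thus overlapped between the groups, with a difference of 0.23 ± 0.10 and an interval from 0.010 to 0.46 (adjusted p = 0.0615). Its sign was opposite to that of the heavy chains, but scaled to spike-in probes it was lower (-0.43), and with quantile or median scaling, or without the first HFD sample, it was called higher.

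**Figure D2:**
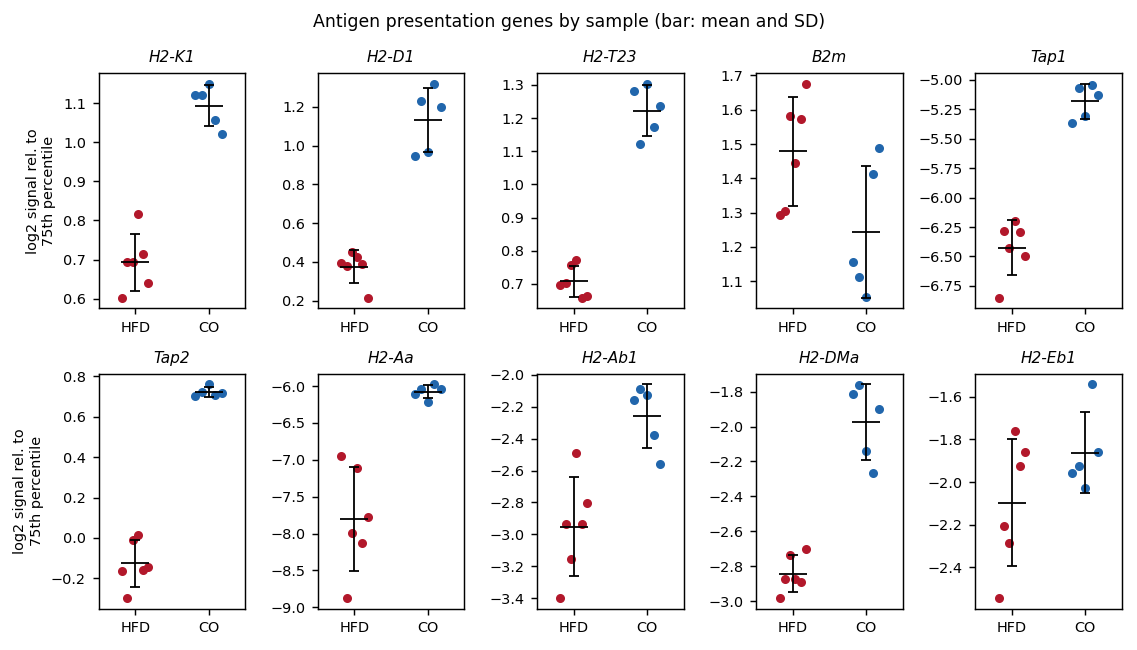
Log2 signal relative to the 75th percentile of the array for 10 antigen presentation genes, each with its own axis. Points are samples, HFD on the left (n = 6) and CO on the right (n = 5), and bars give the mean and SD. In Tap2 the HFD samples lie at or below 0.015 and the CO samples at or above 0.70, whereas the groups overlap in B2m and H2-Eb1.

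Non-classical class I genes, of the Q, T and M regions, present restricted peptide sets to innate-like cells or have other roles. Of 15 measured, 10 were lower, H2-Q4 was higher and 4 were not called, and the median difference was -0.59. The shares were 66.7% lower and 6.67% higher, beside 44.5% and 21.9% of all genes. H2-Q6 lay between -1.25 and -0.95 in HFD offspring, with a median of -1.07, and at -0.52, -0.25, -0.41, -0.28 and -0.29 in CO offspring. The H2-Q8 signal was -4.88 at the lowest, -4.66 at the median and -4.48 at the highest in HFD offspring, while the CO samples stood at -4.14, -3.47, -3.71, -3.71 and -3.94. For H2-Q10 the HFD median was -3.17 with extremes of -3.48 and -3.13, against -2.69, -2.53, -2.64, -2.58 and -2.40 in the CO samples. All HFD samples lay below the CO samples in these 3 genes. Their differences were -0.73 ± 0.073 (adjusted p = 7.02e-06), -0.87 ± 0.12 (adjusted p = 6.58e-05) and -0.67 ± 0.082 (adjusted p = 2.78e-05), and that of H2-Q8 lost its call with normexp correction. H2-T23, which encodes Qa-1, a ligand of inhibitory receptors on natural killer cells, differed by -0.52 ± 0.052 (adjusted p = 7.76e-06). The Qa-2 gene H2-Q7 differed by -0.59 ± 0.095, H2-Q2 by -0.59 ± 0.076, H2-T10 by -0.48 ± 0.072 and H2-M3, which presents formylated bacterial peptides, by -0.27 ± 0.086. The H2-T10 and H2-M3 calls were lost with normexp correction, and that of H2-M3 also with median scaling. H2-Q4 was the exception at 0.31 ± 0.12 (adjusted p = 0.042), a call lost when any 1 of 8 arrays was left out. Quantile normalisation and normexp correction also ended this call, and spike-in scaling turned it to lower (-0.36).

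H2-M1 and H2-M10.3 belong to class I families known from the vomeronasal organ. H2-M1 lay between -9.42 and -7.77 in HFD offspring, with a median of -8.11, and at -7.47, -7.08, -7.16, -7.25 and -6.86 in CO offspring. The H2-M10.3 signal was -9.52 at the lowest, -8.14 at the median and -7.41 at the highest in HFD offspring, while the CO samples stood at -7.44, -6.23, -5.72, -6.08 and -5.91. Neither was well above background on any HFD array, while both were on all 5 CO arrays, so they entered the analysis through CO alone and had to be lower. Set against the lowest signal that was well above background on each HFD array, H2-M1 was at least 1.17-fold lower and H2-M10.3 at least 2.13-fold lower. Normexp correction ended the calls of both genes, and quantile normalisation that of H2-M1. H2-Q1, H2-T24, H2-M11 and H2-M10.2 were not called, with differences between -0.90 and 0.044.

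Class II genes encode the peptide-presenting chains and the proteins that load them. Of the 8 measured, 5 were lower, 1 was higher and 2 were not called. The shares were 62.5% lower and 12.5% higher, beside 44.5% and 21.9% of all genes. For H2-DMa the HFD median was -2.87 with extremes of -2.98 and -2.70, against -1.81, -1.76, -2.14, -2.27 and -1.90 in the CO samples. H2-DMa encodes a chain of the peptide exchanger, and all its HFD samples lay below CO, with a difference of -0.87 ± 0.098 (adjusted p = 1.62e-05). The H2-Ab1 signal was -3.40 at the lowest, -2.94 at the median and -2.49 at the highest in HFD offspring, while the CO samples stood at -2.16, -2.09, -2.12, -2.37 and -2.56. H2-Aa lay between -8.88 and -6.94 in HFD offspring, with a median of -7.88, and at -6.11, -6.04, -6.22, -5.97 and -6.04 in CO offspring. These chains form the I-A molecule. H2-Ab1 overlapped in 1 HFD sample and differed by -0.69 ± 0.15 (adjusted p = 0.0016), with a second probe at -0.73. H2-Aa differed by -1.73 ± 0.29 (adjusted p = 0.000286), but it was well above background on only 2 of the 6 HFD arrays.

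For H2-Eb1 the HFD median was -2.07 with extremes of -2.54 and -1.76, against -1.96, -1.92, -2.03, -1.54 and -1.86 in the CO samples. The I-E chain gene H2-Eb1 overlapped between the groups, with a difference of -0.23 ± 0.14 and an interval from -0.55 to 0.081 (adjusted p = 0.169). H2-DMb1, the partner of H2-DMa, was likewise not called at -0.24 ± 0.16. H2-Ob lay between -5.75 and -5.03 in HFD offspring, with a median of -5.45, and at -4.93, -4.55, -4.56, -4.65 and -5.30 in CO offspring. H2-Oa and H2-Ob, whose products restrain the peptide exchanger, were lower, at -0.46 ± 0.097 and -0.61 ± 0.17 (adjusted p = 0.00142 and 0.00826), and a second H2-Ob probe was not called at -0.0020. H2-Eb2 was higher at 0.40 ± 0.14 (adjusted p = 0.025), a call lost without any 1 of 5 arrays, the first HFD sample among them. Only the H2-DMa call remained with normexp correction, and quantile normalisation ended those of H2-Oa and H2-Ob.

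The H2-Ke6 signal was 1.29 at the lowest, 1.54 at the median and 1.59 at the highest in HFD offspring, while the CO samples stood at 1.81, 1.84, 1.71, 1.43 and 1.91. H2-Ke6 lies in the MHC but encodes a hydroxysteroid dehydrogenase, and its difference of -0.23 ± 0.091 (adjusted p = 0.041) lost its call without any 1 of 9 arrays. Quantile normalisation, median scaling and normexp correction each ended the call too.

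Of the 4 interferon receptor genes 1 was higher and 3 were not called, or 25% higher and 0% lower beside 21.9% and 44.5% of all genes. Ifnar1 lay between 0.72 and 0.80 in HFD offspring, with a median of 0.76, and at 0.56, 0.60, 0.66, 0.78 and 0.87 in CO offspring. For Ifnar2 the HFD median was -0.34 with extremes of -0.53 and -0.25, against -0.37, -0.35, -0.36, -0.48 and -0.30 in the CO samples. The Ifngr1 signal was 1.22 at the lowest, 1.45 at the median and 1.50 at the highest in HFD offspring, while the CO samples stood at 1.55, 1.33, 1.55, 1.19 and 1.45. The groups overlapped in these 3 chains, with intervals from -0.071 to 0.20 for Ifnar1, from -0.11 to 0.16 for Ifnar2 and from -0.18 to 0.17 for Ifngr1. Ifnar1, a chain of the type I receptor, had 2 dimmer probes that were lower, at -0.60 and -0.57, beside 0.067 ± 0.063 for the brightest. Ifngr2 lay between 0.96 and 1.17 in HFD offspring, with a median of 1.06, and at 0.82, 0.94, 0.75, 0.87 and 1.05 in CO offspring. Ifngr2, a chain of the interferon gamma receptor, was higher by 0.17 ± 0.067 (adjusted p = 0.0394), a call lost without any 1 of 6 arrays. Scaled to spike-in probes, all 4 receptor genes were lower, and with normexp correction none was called.

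Of the 11 transcription factors 8 were lower, Irf2 was higher and Irf1 and Stat2 were not called. That is 72.7% lower and 9.09% higher, beside 44.5% and 21.9% of all genes. The Irf3 signal was 1.76 at the lowest, 1.82 at the median and 2.00 at the highest in HFD offspring, while the CO samples stood at 2.32, 2.36, 2.38, 2.21 and 2.38. For Irf7 the HFD median was -5.93 with extremes of -6.33 and -5.43, against -4.64, -4.73, -4.61, -4.62 and -4.47 in the CO samples. IRF3 and IRF7 switch on interferon genes after a cell has sensed viral nucleic acid. No HFD sample reached CO in either gene, and the differences were -0.49 ± 0.059 for Irf3 (adjusted p = 2.41e-05; 71% of CO) and -1.30 ± 0.13 for Irf7 (adjusted p = 6.33e-06; 40.6% of CO). The Irf7 call was lost with normexp correction.

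Irf9 lay between -0.35 and 0.14 in HFD offspring, with a median of -0.19, and at 0.29, 0.45, 0.31, 0.26 and 0.38 in CO offspring. The Stat2 signal was 0.47 at the lowest, 0.60 at the median and 0.69 at the highest in HFD offspring, while the CO samples stood at 0.47, 0.76, 0.70, 0.73 and 0.81. Both genes encode parts of the factor that binds interferon-stimulated promoters. Irf9 had no overlap and differed by -0.51 ± 0.089 (adjusted p = 0.00037), and Stat2 was not called at -0.11 ± 0.069 (adjusted p = 0.181).

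Irf5 lay between -3.20 and -2.81 in HFD offspring, with a median of -3.02, and at -1.97, -2.01, -2.15, -2.24 and -2.20 in CO offspring. For Irf8 the HFD median was -1.70 with extremes of -1.77 and -1.60, against -1.34, -1.35, -1.62, -1.51 and -1.15 in the CO samples. Irf5 and Irf8 are factors of myeloid cells, microglia included. Irf5 differed by -0.91 ± 0.084 with no overlap (adjusted p = 4.1e-06; 53.3% of CO), and Irf8 by -0.31 ± 0.080 with 1 CO sample inside the HFD range (adjusted p = 0.00489). Irf4 lay between -8.24 and -7.34 in HFD offspring, with a median of -7.83, and at -7.04, -6.50, -6.96, -6.26 and -6.19 in CO offspring. Irf4, a factor of lymphocytes, was well above background on no HFD array and entered through CO alone, so that it had to be lower, by at least 1.68-fold in HFD. Normexp correction ended the calls of Irf4 and Irf8. For Irf1 the HFD median was -0.58 with extremes of -0.87 and -0.46, against -0.51, -0.49, -0.48, -0.48 and -0.23 in the CO samples. Irf1, an activator of class I genes, overlapped at -0.18 ± 0.088 (adjusted p = 0.098), whereas Irf2, which competes with it, was higher at 0.26 ± 0.091 (adjusted p = 0.0227) but not with quantile or normexp processing, and lower (-0.40) with spike-in scaling.

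The IFIT genes encode proteins that bind viral RNA and block its translation. All 6 measured genes were higher in HFD offspring, as were 21.9% of all genes, and their median difference was 0.83. Scaled to spike-in probes, however, Ifit1 was lower (-0.35), Ifit2 stayed higher and the other 4 were not called. The IFIT group was separated from the IFITM genes after their values had been seen. Ifit2 lay between -3.05 and -2.65 in HFD offspring, with a median of -2.89, and at -4.24, -4.37, -4.01, -3.48 and -4.39 in CO offspring. For Ifit3 the HFD median was -0.92 with extremes of -1.14 and -0.77, against -1.92, -1.98, -1.98, -1.50 and -1.50 in the CO samples. The Ifit3b signal was -2.62 at the lowest, -2.40 at the median and -2.22 at the highest in HFD offspring, while the CO samples stood at -3.36, -3.48, -3.43, -3.03 and -3.15. In each of these 3 genes all HFD samples lay above all CO samples. The differences were 1.23 ± 0.15 for Ifit2 (adjusted p = 3.15e-05), 0.83 ± 0.11 for Ifit3 (adjusted p = 6.02e-05) and 0.87 ± 0.11 for Ifit3b (adjusted p = 2.65e-05), and a second Ifit3b probe gave 0.74.

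Ifit1bl2 lay between -0.92 and -0.69 in HFD offspring, with a median of -0.83, and at -1.67, -1.95, -1.41, -1.35 and -1.87 in CO offspring. For Ifit1bl1 the HFD median was -4.09 with extremes of -4.26 and -3.97, against -5.07, -5.19, -4.88, -4.43 and -4.86 in the CO samples. Both relatives of Ifit1 also had no overlap, at 0.83 ± 0.11 (adjusted p = 5.04e-05) and 0.77 ± 0.12 (adjusted p = 0.000187). The Ifit1 signal was -4.47 at the lowest, -4.23 at the median and -4.09 at the highest in HFD offspring, while the CO samples stood at -4.48, -4.88, -4.78, -4.28 and -4.42. Here 2 CO samples lay inside the HFD range, and the difference was 0.32 ± 0.11 (adjusted p = 0.0243), a call lost without the fourth HFD, the second CO or the third CO sample. With normexp correction Ifit1 and Ifit1bl1 were not called. The fourth CO sample was the highest CO sample in each of the 6 genes, with a mean deviation of -0.039 over the group, where the other CO samples had -0.67 to -0.39 and the HFD samples 0.32 to 0.53.

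**Figure D3:**
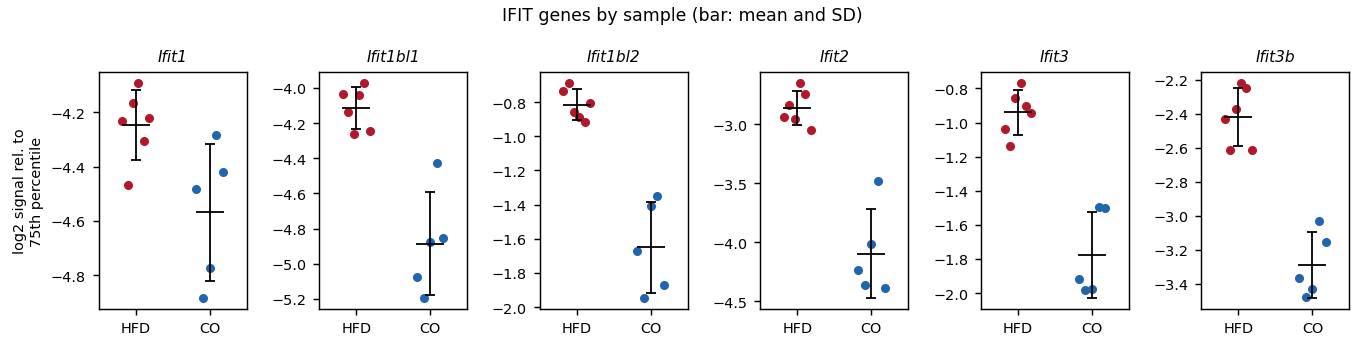
Log2 signal relative to the 75th percentile of the array for the 6 IFIT genes, each with its own axis. Points are samples, HFD on the left (n = 6) and CO on the right (n = 5), and bars give the mean and SD. In 5 genes all HFD samples lie above all CO samples, while in Ifit1 the groups overlap. Scaled to spike-in probes, Ifit1 is lower in HFD.

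Promoters are shown for IFIT genes that carry the interferon-stimulated response element. The element was searched as GAAA, then any 2 bases, then GAAA again, on both strands of 300 bases around each RefSeq start (build GRCm38.p6), of which 250 lie upstream, and 71 of the 91 members matched a promoter. It was found in 24 of these 71 members (33.8%) and in 506 of 13621 genes tested (3.71%), and in 5 of the 6 IFIT genes. The exception was Ifit2, which had no match to this pattern in the 300 bases, and sequence beyond them was not searched. Ifit2 had the largest difference of the IFIT genes. In the stretches printed here, all upstream of the start and written 5′ to 3′ on the gene's strand, capitals mark the element as it reads on this strand (GAAA-NN-GAAA, or TTTC-NN-TTTC for its reverse complement). Ifit3 (chr19:34583348-34583441, plus strand) and Ifit3b (chr19:34607744-34607837, plus strand) had identical stretches. Ifit1 (chr19:34640760-34640838, plus strand) and Ifit1bl2 (minus strand) start on either side of the same stretch and so share both elements. The Ifit1bl1 stretch is chr19:34602038-34602097, minus strand. A second listed Ifit1bl1 start has the element in chr19:34599428-34599475, minus strand, which is not printed.
Ifit3 and Ifit3b: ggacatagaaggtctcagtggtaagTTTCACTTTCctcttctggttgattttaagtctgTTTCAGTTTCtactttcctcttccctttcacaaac
Ifit1: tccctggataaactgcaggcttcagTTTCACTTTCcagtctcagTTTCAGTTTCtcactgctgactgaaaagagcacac
Ifit1bl1: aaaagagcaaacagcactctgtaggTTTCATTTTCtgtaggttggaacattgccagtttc
The genes that carry the element were not of 1 direction: it was in 8 of 13 members called higher, 8 of 37 called lower and 8 of 21 not called. A match to these letters is a description of the sequence. The gamma-activated element, searched as TTC, any 3 bases and GAA, was in 16 of the 71 members (22.5%) and in 8.63% of all genes.

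Of the IFITM genes, which encode membrane proteins that hinder viral entry, 3 of 6 were lower and 3 were not called. The 50% lower was near the 44.5% of all genes. For Ifitm3 the HFD median was -1.12 with extremes of -1.42 and -0.87, against -0.78, -0.44, -0.34, -0.71 and -0.15 in the CO samples. Ifitm6 lay between -6.35 and -5.78 in HFD offspring, with a median of -6.07, and at -5.74, -5.13, -5.29, -5.31 and -5.36 in CO offspring. All HFD samples lay below CO in both, with differences of -0.66 ± 0.13 (adjusted p = 0.000691) and -0.72 ± 0.12 (adjusted p = 0.000311). The Ifitm2 signal was -3.16 at the lowest, -2.55 at the median and -2.43 at the highest in HFD offspring, while the CO samples stood at -2.44, -2.38, -2.58, -2.47 and -2.22. Ifitm2 overlapped, with a difference of -0.26 ± 0.13 (adjusted p = 0.0951). Ifitm5, known from bone, was lower, at -1.78 ± 0.38 (adjusted p = 0.00136) but well above background on only 2 HFD arrays. Ifitm1 and Ifitm10 differed by 0.015 ± 0.10 and -0.022 ± 0.20 and were not called, and quantile normalisation turned Ifitm10 to higher (0.62). With normexp correction only the Ifitm3 call remained.

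Of the 13 Oas, Isg and Trim genes 8 were lower, none was higher and 5 were not called (limma). That is 61.5% lower and 0% higher, beside 44.5% and 21.9% of all genes. Isg15 encodes a ubiquitin-like protein that is attached to other proteins after interferon treatment. Isg15 lay between -1.17 and -1.11 in HFD offspring, with a median of -1.15, and at -0.69, -0.48, -0.79, -0.43 and -0.19 in CO offspring. The HFD samples were close to each other and all below CO, with a difference of -0.63 ± 0.094 (adjusted p = 0.000125; 64.7% of CO), and a second probe gave -1.02. For Isg20 the HFD median was -1.77 with extremes of -2.18 and -1.40, against -0.96, -1.03, -0.74, -1.42 and -1.23 in the CO samples. Isg20, an RNA-degrading enzyme, overlapped in 1 sample of each group and differed by -0.71 ± 0.14 (adjusted p = 0.00101).

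OAS enzymes make a short messenger after binding viral RNA. The Oas1a signal was -2.96 at the lowest, -2.74 at the median and -2.62 at the highest in HFD offspring, while the CO samples stood at -2.15, -2.28, -2.32, -2.10 and -1.85. For Oas2 the HFD median was -4.10 with extremes of -4.38 and -3.82, against -3.29, -3.44, -3.43, -3.11 and -3.22 in the CO samples. Oasl2 lay between -3.12 and -2.70 in HFD offspring, with a median of -2.97, and at -2.56, -2.74, -2.75, -2.61 and -2.57 in CO offspring. Oas1a and Oas2 had no overlap and differed by -0.64 ± 0.098 (adjusted p = 0.000145) and -0.82 ± 0.11 (adjusted p = 5.45e-05), and Oasl2, which overlapped, by -0.29 ± 0.087 (adjusted p = 0.0123). A second Oas1a probe gave -0.96. Oas1e and Oas1f were lower as well, at -0.48 ± 0.090 and -0.64 ± 0.11, while Oas1c, Oas1d and Oasl1 were not called at -0.17 ± 0.090, -0.039 ± 0.24 and -0.44 ± 0.19. The Oas1 genes are close relatives, and binding of their probes to each other's transcripts was not tested. The Trim21 signal was -3.36 at the lowest, -3.12 at the median and -3.04 at the highest in HFD offspring, while the CO samples stood at -3.11, -2.94, -2.90, -2.88 and -2.73. For Trim25 the HFD median was 1.03 with extremes of 0.96 and 1.10, against 1.09, 0.96, 1.29, 0.66 and 0.88 in the CO samples. Both encode ubiquitin ligases of antiviral defence. Trim21 was lower, at -0.24 ± 0.080 (adjusted p = 0.0204), which was lost without the fifth CO sample, and Trim25 was not called at 0.050 ± 0.096 (adjusted p = 0.665). With normexp correction the calls of Isg15, Isg20, Oas1a and Oas1f remained. Median scaling ended the calls of Oasl2 and Trim21, and quantile normalisation that of Oas1e.

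Isg15 and Oas1a are shown as genes that carry the element and were lower. The stretches are chr4:156200850-156200921 for Isg15 and chr5:120907526-120907570 for Oas1a, both on the minus strand, and in each of them overlapping elements run together in the capitals.
Isg15: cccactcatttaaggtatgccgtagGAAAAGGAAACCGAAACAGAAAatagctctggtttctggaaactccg
Oas1a: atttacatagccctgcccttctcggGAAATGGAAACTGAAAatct

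**Figure D4:**
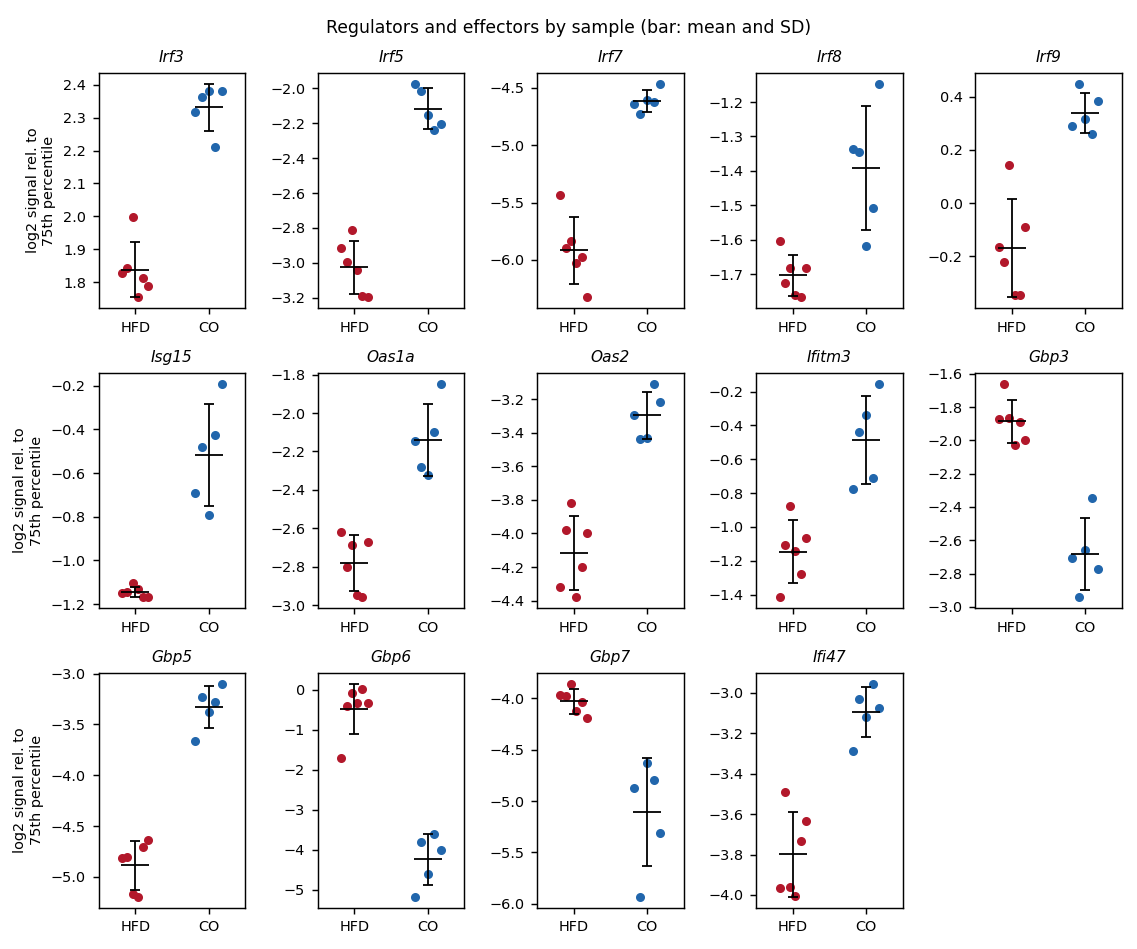
Log2 signal relative to the 75th percentile of the array for 5 transcription factors and 9 effector genes, each with its own axis. Points are samples, HFD on the left (n = 6) and CO on the right (n = 5), and bars give the mean and SD. Gbp3, Gbp6 and Gbp7 have all HFD samples above CO, whereas Gbp5, Isg15, Oas1a, Oas2, Irf3 and Irf7 have all HFD samples below. Scaled to spike-in probes, Gbp6 alone of these is called higher.

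The interferon-inducible GTPases, which attack the vacuoles of intracellular pathogens, had 3 of 11 genes higher, 5 lower and 3 not called, which is 27.3% higher and 45.5% lower, near the 21.9% and 44.5% of all genes. Gbp6 lay between -1.71 and 0.016 in HFD offspring, with a median of -0.34, and at -5.18, -3.81, -4.60, -3.61 and -3.99 in CO offspring. Gbp6 had the largest difference of the 91 members, 3.76 ± 0.34 (adjusted p = 3.71e-06), a 13.6-fold higher signal with no overlap. Without the first HFD sample, the lowest of the group, it was 4.01. A second, dimmer Gbp6 probe was also higher, but by 0.79. For Gbp7 the HFD median was -4.01 with extremes of -4.19 and -3.86, against -4.87, -5.94, -4.63, -4.79 and -5.31 in the CO samples. The Gbp3 signal was -2.03 at the lowest, -1.88 at the median and -1.66 at the highest in HFD offspring, while the CO samples stood at -2.70, -2.94, -2.66, -2.35 and -2.77. All HFD samples of both genes lay above CO, by 1.08 ± 0.20 (adjusted p = 0.000554) and 0.80 ± 0.10 (adjusted p = 3.91e-05), but neither was called with spike-in scaling.

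For Gbp5 the HFD median was -4.81 with extremes of -5.20 and -4.63, against -3.66, -3.23, -3.38, -3.28 and -3.10 in the CO samples. Gbp5, a neighbour of Gbp3 and Gbp7 on chromosome 3, lay below CO in every HFD sample, by -1.56 ± 0.13 (adjusted p = 2.02e-06; 34% of CO). Gbp2 lay between -3.05 and -2.62 in HFD offspring, with a median of -2.81, and at -2.88, -2.81, -2.85, -2.73 and -2.78 in CO offspring. The Irgm1 signal was -1.53 at the lowest, -1.47 at the median and -1.37 at the highest in HFD offspring, while the CO samples stood at -1.45, -1.35, -1.51, -1.30 and -1.51. Gbp2 of the same chromosome and Irgm1, a regulator of other GTPases, overlapped and were not called, with intervals from -0.22 to 0.17 and from -0.15 to 0.10. Gbp2b lay between -9.60 and -7.74 in HFD offspring, with a median of -8.44, and at -7.73, -6.93, -7.20, -7.25 and -7.28 in CO offspring. Gbp2b was well above background on no HFD array and entered through CO alone, so that it had to be lower, by at least 1.08-fold in HFD. Gbp9, Gbp10 and Irgm2 were lower, at -0.55 ± 0.14, -0.73 ± 0.12 and -0.30 ± 0.079, and Gbp4 was not called at 0.30 ± 0.25. With normexp correction the calls of Gbp3, Gbp5, Gbp6 and Irgm2 remained, and quantile normalisation ended that of Gbp2b.

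All 7 GTPases with a matched promoter carried the element, whichever way they went. The 4 chromosome 3 genes shown are on the plus strand, Gbp3 at chr3:142559974-142560039, Gbp7 at chr3:142530258-142530317, Gbp5 at chr3:142496744-142496803 and Gbp2 at chr3:142620579-142620638. Gbp3 and Gbp7 were higher, Gbp5 was lower and Gbp2 was not called.
Gbp3: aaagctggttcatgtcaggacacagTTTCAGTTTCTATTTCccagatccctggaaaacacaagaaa
Gbp7: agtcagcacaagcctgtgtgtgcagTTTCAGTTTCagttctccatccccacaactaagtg
Gbp5: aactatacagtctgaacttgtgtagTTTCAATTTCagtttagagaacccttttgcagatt
Gbp2: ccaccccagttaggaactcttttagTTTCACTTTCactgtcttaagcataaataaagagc

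Of the 10 p200 and other Ifi genes 2 were higher, 4 lower and 4 not called, and with normexp correction none was called (limma). These shares, 20% higher and 40% lower, were near the 21.9% and 44.5% of all genes. The Ifi47 signal was -4.01 at the lowest, -3.85 at the median and -3.49 at the highest in HFD offspring, while the CO samples stood at -3.29, -3.03, -3.12, -2.96 and -3.08. Ifi47, itself an immunity-related GTPase, had no overlap and differed by -0.70 ± 0.10 (adjusted p = 0.000114). Ifi204 lay between -4.43 and -3.65 in HFD offspring, with a median of -3.95, and at -4.54, -4.88, -4.41, -4.28 and -4.44 in CO offspring. For Ifi44 the HFD median was -5.16 with extremes of -5.61 and -4.91, against -5.62, -6.07, -5.55, -5.29 and -5.36 in the CO samples. Ifi204, a DNA-binding protein of the p200 family, and Ifi44 were higher by 0.53 ± 0.14 (adjusted p = 0.0051) and 0.41 ± 0.15 (adjusted p = 0.0343). Both overlapped between the groups, the Ifi44 call was lost without any 1 of 7 arrays, the first HFD sample among them, and with spike-in scaling the differences were -0.14 and -0.26. The Ifi35 signal was -3.17 at the lowest, -2.96 at the median and -2.69 at the highest in HFD offspring, while the CO samples stood at -2.36, -2.72, -2.55, -2.74 and -2.50. Ifi27 lay between 1.55 and 2.05 in HFD offspring, with a median of 1.79, and at 2.14, 2.17, 2.14, 1.94 and 2.12 in CO offspring. Ifi35 and the mitochondrial Ifi27 were lower, at -0.37 ± 0.096 (adjusted p = 0.0051) and -0.30 ± 0.087 (adjusted p = 0.01). Ifi30, a lysosomal reductase that unfolds antigens for class II loading, was lower, at -0.30 ± 0.11 (adjusted p = 0.0259), which was lost without any 1 of 5 arrays. Median scaling ended the Ifi30 call too.

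**Figure D5:**
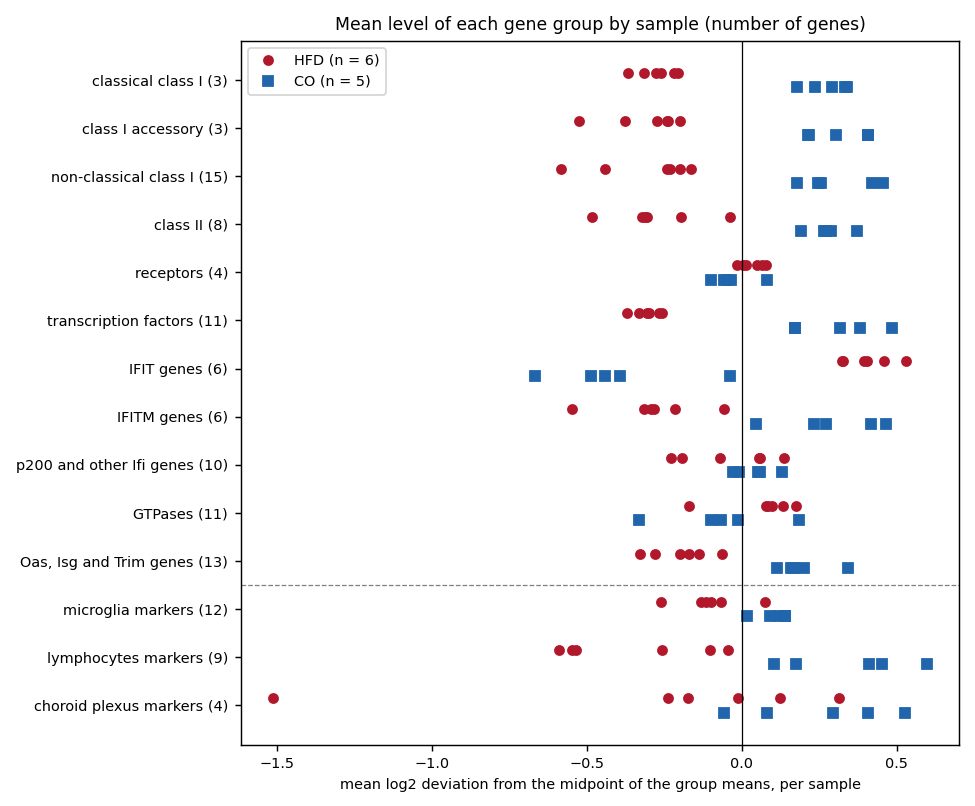
Mean log2 deviation of each gene group from the midpoint of its group means, per sample, for HFD (circles, n = 6) and CO (squares, n = 5). Numbers of genes stand in parentheses, and marker lists lie below the dashed line. The IFIT group lies between 0.32 and 0.53 in HFD and between -0.67 and -0.039 in CO. The transcription factors lie between -0.37 and -0.26 in HFD and between 0.17 and 0.48 in CO. Irf4, H2-M1, H2-M10.3, Gbp2b and the lymphocyte marker Cd8a, counted in their groups, entered through CO alone and had to be lower. Scaled to spike-in probes, Ifit1 is lower in HFD.

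Per sample, the mean deviation of the non-classical class I genes was -0.58 to -0.16 in HFD and 0.18 to 0.45 in CO. This mean includes H2-M1 and H2-M10.3, which entered through CO alone and had to be lower. Part of the separation was therefore fixed by the filter. The same holds for Irf4 in the transcription factor mean and Gbp2b in the GTPase mean. For the Oas, Isg and Trim genes the mean deviation was -0.33 to -0.063 in HFD and 0.11 to 0.34 in CO. The receptor, p200 and GTPase groups overlapped. Within the groups the IFIT genes varied together, with a median Pearson correlation of 0.59 between pairs of genes over the deviations of the 11 samples from their group means, where the median over all genes was 0.0086 and over the members 0.075. The transcription factors had 0.23 and the Oas, Isg and Trim genes 0.083. These points share an array and a scaling factor per sample. The fourth CO sample, the highest CO sample in each IFIT gene, is among them. Some IFIT genes are close relatives, and binding of their probes to each other's transcripts was not tested. Marker lists of choroid plexus, striatum and border macrophages had 0.94, 0.83 and 0.70. Those of lymphocytes, microglia, hypothalamus and endothelium had 0.38, 0.34, 0.25 and 0.045.

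Of the 17 members with more than 1 probe past the background limit, none had probes called in opposite directions. In 7 all probes were lower, in 2 all were higher, in 1 none was called, and in the other 7 some were called and some were not. Isg20l2, for example, had -0.068 ± 0.071 for its brightest probe and -1.26 for a dimmer one. Dim probes were lower more often over the whole array: below a mean of -5, 59.4% of all genes were lower, beside 57.9% of the 19 members there. Above a mean of 0, 41.6% of all genes were lower, beside 55% of 20 members. The 16 members on the arrays that stayed below the limit were Gbp8, H2-DMb2, 6 further H2 genes, Ifi202b, Ifi209, Ifi213, Ifi214, Ifi44l, Oas1g, Oas1h and Oas3, and their best probes were well above background on 0 to 4 arrays.

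Of 61 pathway genes measured outside these families, 10 were higher, 29 lower and 22 not called. These shares, 16.4% higher and 47.5% lower, and the median difference of -0.17 were near those of all genes, 21.9%, 44.5% and -0.18. Among the sensors of viral RNA, Ifih1 (MDA5) was higher by 1.24 and Tlr3 by 0.71, while Ddx58 (RIG-I) was lower, at -0.45, and Tlr7 at -1.27. The RNA-activated kinase Eif2ak2 was higher by 1.05. Of the Janus kinases, Jak1 and Jak2 were higher by 0.42 and 0.89, and Tyk2 was lower at -0.54. Usp18 and Uba7, which remove and attach ISG15, were lower at -0.56 and -0.43. In class I loading, the chaperone Canx was higher by 0.90 and the peptide trimmer Erap1 by 0.81, Calr was lower at -0.54, and Tapbp was not called at 0.14. Cd74, the class II chaperone, was lower at -0.42, whereas the class II activator Ciita and the class I activator Nlrc5 were not called at 0.25 and -0.16. With spike-in scaling all these differences shift by -0.67.

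Among 12 microglia markers 6 were lower and 3 higher, 50% and 25% beside 44.5% and 21.9% of all genes, and their mean deviation was -0.26 to 0.074 in HFD and 0.016 to 0.14 in CO. Csf1r and Trem2 were lower, at -0.82 and -0.66, and Itgam was higher at 0.69. Of 9 lymphocyte markers 7 were lower and 1 higher, with mean deviations of -0.59 to -0.043 in HFD and 0.10 to 0.60 in CO. Cd8a, counted among the 7, was well above background on no HFD array and entered through CO alone, so that it had to be lower. Cd79a and Ms4a1 were well above background on only 1 and 2 HFD arrays, and the mean deviations include all of these markers. Of the 5 well above background on all arrays, Cd3e, Cd4, Cd79b and Nkg7 were lower and Ptprc was higher. Of 5 border macrophage markers 1 was higher and none lower (limma), and of 8 endothelial markers 3 were higher and 3 lower. Both red blood cell markers measured were lower, with mean deviations of -0.48 to -0.048 in HFD and 0.12 to 0.45 in CO, and of 2 neutrophil markers S100a8 was lower at -1.02 and S100a9 was not called at -0.61. Of the 9 hypothalamus markers Pmch and Hcrt were higher, at 0.87 and 0.58, and none was lower (limma). Sim1 was also called higher. It was well above background on no CO array and entered through HFD alone, so that it had to be higher. Of the 4 choroid plexus markers Folr1 was lower at -0.80. Markers of the striatum, which lies outside the dissected region, were lower in 5 of 5, with -1.83 to 0.023 in HFD and -0.60 to 1.77 in CO. The part of these markers in the results was not tested.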

How the data were processed

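Single-colour Agilent 4x44K mouse arrays of hypothalamic RNA were analysed for 6 HFD and 5 CO offspring. The deposited values were intensity values of the scanner output, background-subtracted by the authors' Feature Extraction software (version 10.8 in the submitters' processing notes, 10.7.3.1 per the file headers). Spots flagged as outliers and control spots were left out, spots of a probe were averaged, and log2 signals were centred on the 75th percentile of each array. A probe was kept where 5 or more of 11 arrays had it well above background, probes were named by accession through RefSeq (26369 of 39429), and the brightest probe stood for a gene. No mouse spot was saturated, and the number of arrays limits the precision.

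HFD was compared with CO by limma 3.58.1 in R 4.3.3 (lmFit, eBayes, two-sided), with Benjamini-Hochberg adjustment over 17188 genes. The fit was tested on simulated data. The methods' Rank Product test was an alternative, as were other scalings, background corrections, filters, blocks and thresholds. Normexp used median spot signals, since mean signals were not in the files. Bounds ("at least N-fold") set the bright group's mean against the lowest signal well above background on each dim array. Promoter sequences are RefSeq's, build GRCm38.p6.

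Per-sample values were given for the defining members of each role, for the 3 members of each role with the largest difference among those called and well above background on all arrays, and for members not above background in a group. The members and lists were chosen with earlier results of these data known. An IFIT and an IFITM list were separated after their values were seen. Some genes of these families are counted but not reported here by name.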

Additional observations from a re-analysis of the deposited data

Results flagged for a closer look

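Within each group, every member was searched for a sample whose gap to its nearest neighbour took up most of the group's range (Dixon's criterion). This singled out 11 of 182 groups of values, 7 in HFD and 4 in CO, where chance alone singles out about 1 in 20. The first HFD sample was the low one in 4 genes, at -1.71 for Gbp6, 1.29 for H2-Ke6, -9.42 for H2-M1 and -0.53 for Ifnar2. The sixth HFD sample was low at -4.84 for Gbp9 and at 0.22 for H2-D1, and the third HFD sample was high at 2.00 for Irf3. In CO, the fourth sample was high at -7.05 for Ifi211 and low at 1.94 for Ifi27, and the fifth was low at -8.39 for H2-M10.2 and high at -0.23 for Irf1.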

How the results depend on the processing

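Of 15 members higher and 49 lower, quantile normalisation gave 17 and 42, median scaling 17 and 44, no filter 22 and 51, 16 dim members included, and the exact Mann-Whitney test 14 and 47. Scaling to spike-in probes gave 2 and 78, normexp correction 6 and 21, an adjusted p under 0.001 8 and 31, a difference of at least 2-fold 3 and 10, and the Rank Product test 1 and 0. That 1 gene was Gbp6, and the Rank Product test called 2.63% of all genes higher and 2.17% lower. Quantile normalisation called 24.9% of all genes higher and 39.4% lower, median scaling 24.3% and 36.9%, and no filter 22.7% and 40%. The Mann-Whitney test called 21.2% and 42.3%, and an adjusted p under 0.001 (limma) 13% and 24.3%. Leaving out each array gave 11 to 16 members higher and 47 to 50 lower. In all, 23 of the 64 calls, 2 higher and 21 lower, kept their direction and call in the 4 scalings and background settings and without any 1 array. The share of all genes that do so was not counted. Spike-in scaling, 1 of these settings, called 5.56% of all genes higher and 83.6% lower, so lower calls were kept more easily. Spike-in scaling turned the sign of Ifit1 (-0.35), Ifitm1 (-0.65), Trim25 (-0.62), B2m (-0.43), H2-Eb2 (-0.26), H2-Q4 (-0.36), H2-T24 (-0.62), Ifi204 (-0.14), Ifi44 (-0.26), Ifnar1 (-0.60), Ifnar2 (-0.64), Ifngr2 (-0.49) and Irf2 (-0.40), since it shifts every difference by -0.67. Quantile normalisation turned Ifitm10 (0.62), and the mean over probes turned Ifnar1 (-0.37); the cause was not tested. The replicate numbers did not pair the samples, with correlations of deviations between -0.10 and 0.18, and with the replicate block 12 members were higher and 47 lower. Slide as a random block gave 16 and 51, and the leading number of the CO labels as a random block 15 and 49. Members near background on HFD arrays have only a bound there.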
